A study of Mus musculus with 10 samples.

Results

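The 31 genes of fatty acid uptake and oxidation examined here span the path of a long-chain fatty acid from the blood vessel wall to the respiratory chain. The genes were listed by symbol, with earlier results of these data known, so the list as a whole gets no test. They are read by 40 probes, 9 genes having 2 probes each, among 22016 genes or transcripts tested, 15230 of them with a symbol. All 31 passed the filter on dim spots, which asked for a Cy5 signal well above background on at least 4 arrays. The hearts came from male mice that received no treatment (5 mice) or aldosterone, the adrenal steroid that activates the mineralocorticoid receptor (5 mice), over 7 days, and ventricle RNA of each mouse was labelled with Cy5. The Cy3 channel of every array held the same mixture of RNA from kidney, spleen, liver, brain and heart. Both groups carry the tag Ctrl in their labels, and strain, age and hormone dose are not given in the sources used here. Scanner files of 9 arrays were analysed, and aldosterone 4 entered through the deposited table of log2 ratios for 10 hearts alone. The series asks which genes of the heart aldosterone regulates.

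The working heart takes most of its energy from long-chain fatty acids. They are freed from lipoproteins by lipase on the capillary wall, taken up and bound in the cell, joined to coenzyme A, carried into mitochondria as carnitine esters, and shortened stepwise by beta-oxidation, whose electrons pass through the electron transfer flavoprotein to the respiratory chain. Many genes of the path are targets of peroxisome proliferator-activated receptors (PPARs) and estrogen-related receptors, nuclear receptors with which PGC-1 coactivators work.

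Every level below is a log2 ratio of heart to reference, and every difference is between such ratios. On the arrays the ratios were taken after background correction and loess, a fit of each array's intensity trend. There 0 marks that trend and is no measured equality. Levels can differ in the deposited values: in no treatment 1 Crat read 1.18 on the arrays and 2.25 there, and Mlycd 0.85 and 0.73. Of the 31 genes, 26 were above 0 in the mean of the 5 untreated hearts and 5 were below it. The share over all genes is not given here, so this count is a description only. The levels below 0 belonged to Plin2, Cpt1a, Ucp2, Ucp3 and Acot1. For Ucp3 this holds on its probe of higher signal, while its other probe was above 0 in every heart. The Cy5 spots of the probes used for Lpl, Fabp3, Acadvl, Acaa2 and Etfb were saturated on all 9 arrays and those of Hadhb on 8. These probes of the 6 genes give no usable fold between the treatment groups. Lpl has a second, unsaturated probe, given below. Acsl1 was saturated on 1 array. The other 25 genes could be compared on the probe used. The means of the 10 cardiomyocyte markers lay between 0.99 and 1.34 over the hearts, although Actc1 among them was below the reference in every heart, at -0.45 to -0.10. The atrial markers Myl7, Myl4 and Sln had list means from -4.68 to -4.43. Of 39429 probes an array had 25349 to 27955 with Cy5 well above background, and median Cy5 signals lay between 118.5 and 146.25 units over median local backgrounds of 57 to 59 units.

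**Figure D1:**
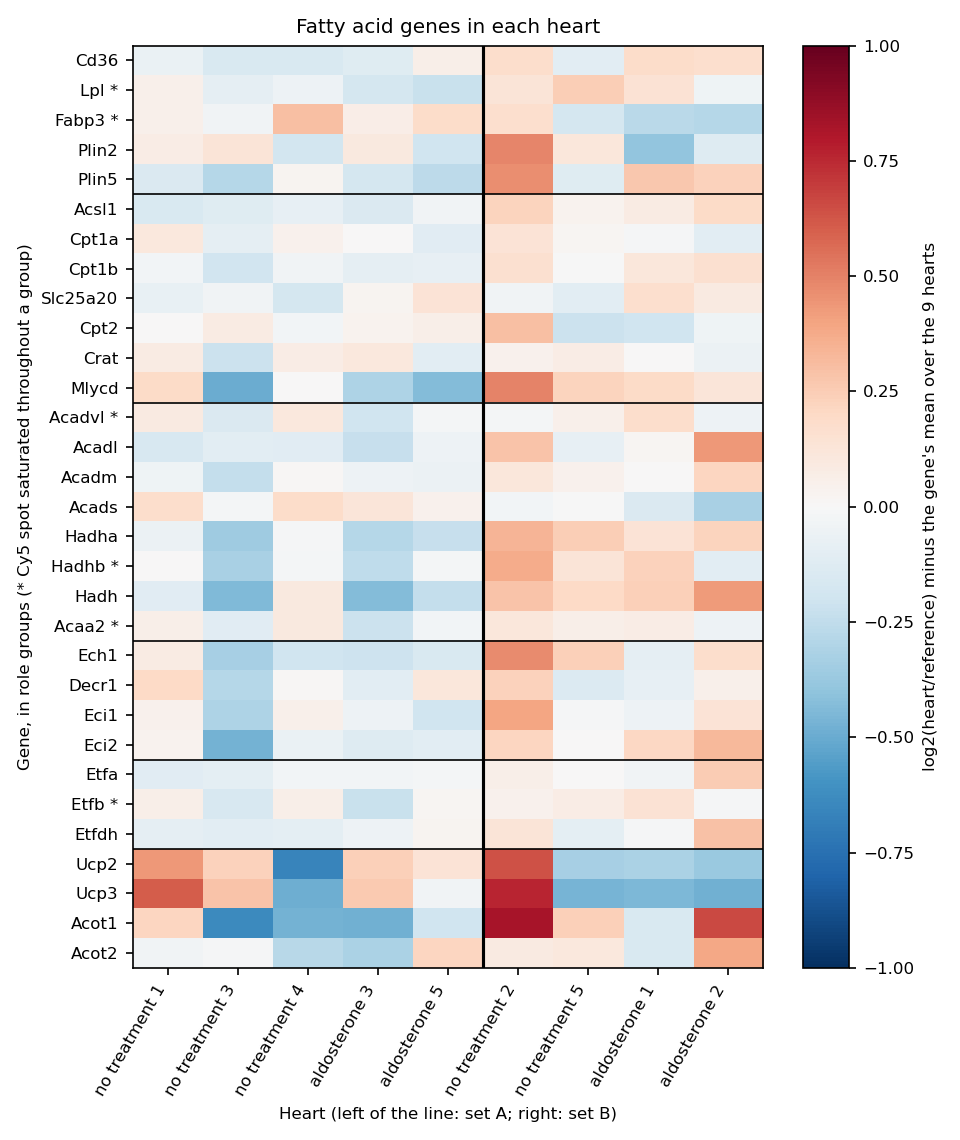
Level of each of the 31 genes (vertical axis, by role) in each of 9 hearts (horizontal axis), as log2 ratio of heart to reference minus the gene's mean over the hearts (colour). No treatment 2 is high and no treatment 3 is low in most genes, and the 2 groups share the colour range.

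No gene of the 31 was called between aldosterone and no treatment (limma, Benjamini-Hochberg over all genes, threshold 0.05), and neither was any of the 22016 genes, a background of 0%. At an unadjusted p under 0.05 limma gave 1363 genes, 6.19% of all, and 1 of the 31, Slc25a20, which was higher, as 4.15% of all genes were at that p. The smallest adjusted p among the 31 was 0.523 in that limma fit. In the value table of 10 hearts limma called 37 genes, 0.168% of all, and again none of the 31; at an unadjusted p under 0.05 it gave 8.09% of all genes and, of the 31, Slc25a20 alone. Of the 25 genes with unsaturated spots 14 were lower and 11 higher with aldosterone, with differences from -0.32 to 0.19 and a median of -0.01. Over all 31 the count was 20 lower and 11 higher with a median of -0.04, where 47.7% of all genes were lower and their median was 0.00. The 6 genes added in this count are the saturated ones, all on the lower side, whose differences are not usable. The 95% interval of the difference lay within 0.5 of 0 for 20 of the 25, against 92.6% of all genes, so for these 20 genes a larger change is not in the interval. The other 5 were Plin2, Mlycd, Ucp2, Ucp3 and Acot1. The median standard error of the 25 was 0.122 against 0.0789 for all genes. Red blood cell and fibroblast markers had higher values with aldosterone in the same hearts, none called. All 4 tested red cell genes and all 6 fibroblast genes were higher, with list means from -3.36 to -2.46 without and -2.39 to -1.92 with aldosterone for red cells, and from 0.06 to 0.66 and 0.43 to 0.93 for fibroblasts. Adipocyte markers were lower in 7 of 8 genes, none called, with list means from -0.50 to -0.16 without and -0.70 to -0.38 with aldosterone. Their median difference was -0.12 on the arrays and -0.52 in the value table. Adipoq stood at -1.09 and Cidec at -1.68 in that table, but at -0.09 and -0.23 on the arrays. Cy5 was well above background on only 5 arrays for Adipoq, 7 for Cidec, and 4 each for Plin1 and Lep. The other adipocyte markers were so on all 9. The part of these markers in the values of the 31 genes, the uptake and droplet genes included, was not tested. In whole tissue a smaller number of cells of a type and less RNA per cell cannot be told apart.

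**Figure D2:**
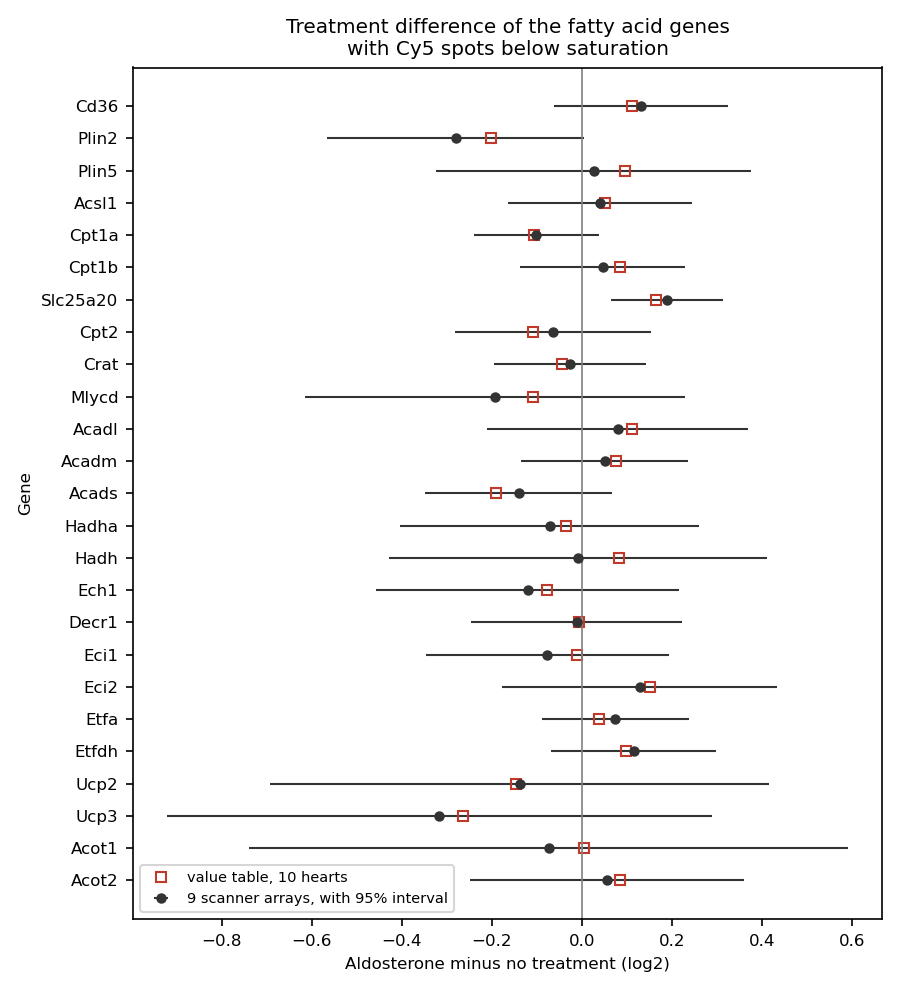
Difference between aldosterone (4 hearts) and no treatment (5 hearts) for the 25 genes whose Cy5 spots were not saturated throughout a group (vertical axis), on the log2 scale (horizontal axis), filled points with 95% limma intervals; open squares give the value table of 10 hearts. Slc25a20 alone has an interval that leaves 0 out, and Ucp2, Ucp3 and Acot1 have the widest intervals.

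Among the uptake and droplet genes Cd36, the fatty acid translocase of the cell surface, lay between 1.24 and 1.57 in untreated and between 1.27 and 1.57 in aldosterone hearts. Its difference was 0.13 (SE 0.09), not called. Plin2, a coat protein of lipid droplets, had the smallest p of this role. Its levels were -1.17, -0.75, -1.11, -1.42 and -1.13 in no treatment 1 to 5 and -1.63, -1.37, -1.14 and -1.44 in aldosterone 1, 2, 3 and 5. The highest value belonged to no treatment 2 and the lowest to aldosterone 1, and the groups overlapped. The difference of -0.28 (SE 0.13) had an adjusted p of 0.818 in limma. Aldosterone 4, in the value table alone, read -0.81, the second highest of the 10 hearts there, where no treatment 2 read -0.64. Within slides the Plin2 difference was -0.67, -0.25, 0.28 and -0.32 on slides 1 to 4. Plin5, the droplet protein that tethers droplets to mitochondria, ranged from 1.82 to 2.56 with both groups spread over that range. Lpl and Fabp3, the lipoprotein lipase and the heart's fatty acid binding protein, were saturated, but Lpl has a second probe that was not. That probe read 1.58, 1.82, 1.09, 1.5 and 1.84 in no treatment 1 to 5 and 1.94, 1.69, 1.48 and 1.14 in aldosterone 1, 2, 3 and 5. Each group holds high and low hearts, and its treatment difference was -0.00.

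The carnitine shuttle moves acyl groups into the mitochondrion. Cpt1b, the muscle form of the outer carnitine palmitoyltransferase, and Cpt2, the inner one, differed by 0.05 (SE 0.08) and -0.06 (SE 0.10) between the groups. Slc25a20, the carnitine-acylcarnitine carrier of the inner membrane, read 1.45, 1.49, 1.5, 1.35 and 1.42 in no treatment 1 to 5. In aldosterone 1, 2, 3 and 5 it read 1.69, 1.61, 1.56 and 1.67. Every aldosterone heart was above every untreated heart, and it was the only gene of the 31 whose groups did not overlap, where 1.46% of all genes separated in that direction and 2.1% in either. The difference was 0.19 (SE 0.06, 95% interval 0.07 to 0.31), a fold of 1.14, with an unadjusted p of 0.00645 and an adjusted p of 0.523 in limma, so it was not called. The value table, which adds aldosterone 4 at 2.17, gave 2.17, 2.17, 2.13 and 2.19 for the other aldosterone hearts and 1.89 to 2.11 for the untreated, again apart. The difference was above 0 on each of the 4 slides (0.22, 0.12, 0.21 and 0.25). It was between 0.15 and 0.22 in all 27 alternatives and never called, but the groups overlapped with Agilent's processed signals, with Cy5 alone and with median centring. On every slide aldosterone hearts took position 2 and untreated hearts positions 1 or 4, which cannot be told apart from treatment. Crat, which makes acetylcarnitine, and Cpt1a, the liver form of the outer enzyme, differed by -0.03 and -0.10. Mlycd, which breaks down malonyl-CoA, the inhibitor of Cpt1, was less even: it lay between 0.16 and 1.15 in untreated and between 0.22 and 0.85 in aldosterone hearts, with a difference of -0.19 (SE 0.19).

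In the oxidation spiral, which shortens the chain by 1 acetyl unit per turn, the acyl-CoA dehydrogenases for long, medium and short chains are Acadl, Acadm and Acads. Acads had the smallest p of this role. It read 1.45, 1.24, 1.25, 1.45 and 1.26 in no treatment 1 to 5 and 1.12, 0.95, 1.39 and 1.31 in aldosterone 1, 2, 3 and 5. Aldosterone 1 and 2 were below every other heart, and aldosterone 3 and 5 fell among the untreated. The difference was -0.14 (SE 0.09, adjusted p 0.963, limma). Acadl and Acadm differed by 0.08 and 0.05. Hadha, a subunit of the trifunctional protein, and Hadh, the short-chain hydroxyacyl-CoA dehydrogenase, differed by -0.07 (SE 0.15) and -0.01 (SE 0.19). Enzymes that handle unsaturated chains varied more than they differed: Eci2, an enoyl-CoA isomerase and the one of smallest p here, read 0.82, 1.00, 0.32, 0.72 and 0.79 in no treatment 1 to 5. It read 0.99, 1.11, 0.66 and 0.68 in aldosterone 1, 2, 3 and 5. No treatment 3 was the lowest heart and aldosterone 2 the highest, and the difference of 0.13 (SE 0.14) was not called. Ech1, Decr1 and Eci1 differed by -0.12, -0.01 and -0.08. Of the electron transfer genes Etfdh, the dehydrogenase that hands electrons to ubiquinone, read 2.36, 2.58, 2.34, 2.35 and 2.35 in no treatment 1 to 5 and 2.43, 2.74, 2.39 and 2.47 in aldosterone 1, 2, 3 and 5. Except for no treatment 2, each untreated heart was below each aldosterone heart, and the difference was 0.12 (SE 0.08, adjusted p 0.970, limma). Etfa, a subunit of the flavoprotein, differed by 0.07.

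Ucp2, Ucp3 and Acot1, of the uncoupling proteins and thioesterases, gave the widest spread between single hearts among the 25 genes. The ratio of the highest to the lowest heart was 2.76 for Acot1, the cytosolic thioesterase, 2.46 for Ucp2 and 2.38 for Ucp3, mitochondrial carriers named as uncoupling proteins. The median over the 25 genes was 1.58, against 1.29 over all genes, and only these 3 exceeded 2, while Acot2 was at 1.62. On its probe of higher signal Ucp3 read -0.25, -0.10, -0.58, -1.34 and -1.32 in no treatment 1 to 5, and -1.30, -1.34, -0.59 and -0.90 in aldosterone 1, 2, 3 and 5. No treatment 1 and 2 were highest, and no treatment 4 and 5 matched the lowest aldosterone hearts. The difference of -0.32 (SE 0.27) was not called. Ucp2, whose gene begins 6904 bases past the end of Ucp3 on the same strand, ran in nearly the same order: -0.64, -0.43, -0.84, -1.73 and -1.40 in no treatment 1 to 5, and -1.39, -1.44, -0.83 and -0.93 in aldosterone 1, 2, 3 and 5. The second Ucp3 probe did not follow it. It lay above the reference, at 1.34, 1.47, 0.73, 1.15 and 0.84 in no treatment 1 to 5 and 1.01, 1.12, 0.51 and 0.68 in aldosterone 1, 2, 3 and 5. The 2 probes of Ucp3 therefore disagree on its level against the reference, and statements on Ucp3 hold for 1 probe only. Acot1 and Acot2, the cytosolic and mitochondrial thioesterases, lie 15624 bases apart and are close in sequence, so cross-reading between their probes was not tested. Acot1 read -1.45, -0.84, -2.30, -2.14 and -1.43 in no treatment 1 to 5 and -1.81, -1.0, -2.14 and -1.86 in aldosterone 1, 2, 3 and 5, highest in no treatment 2 and lowest in no treatment 3.

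**Figure D3:**
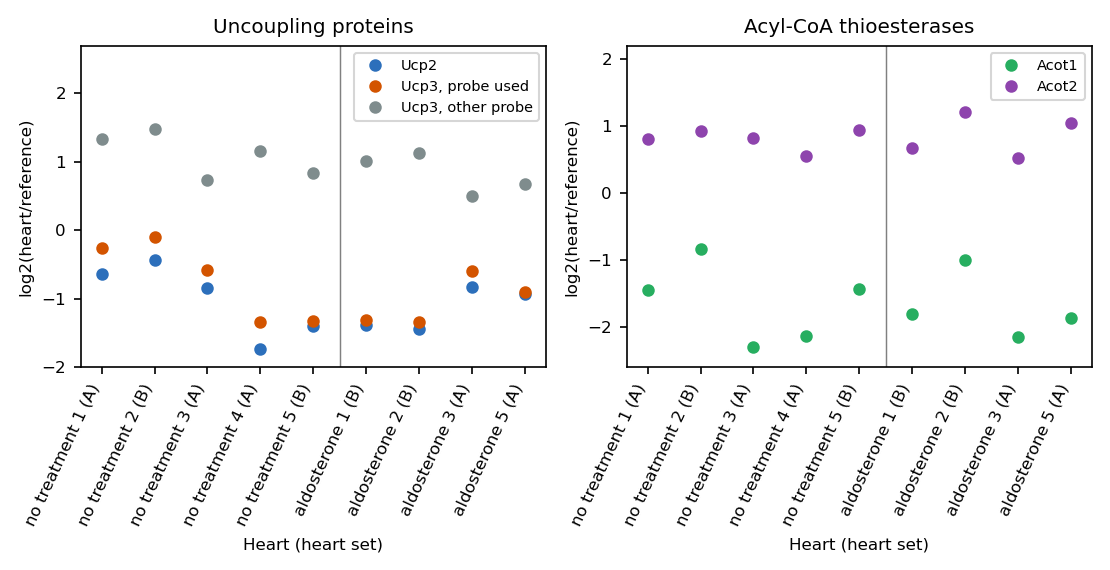
Log2 ratio of heart to reference (vertical axis) in each of 9 hearts (horizontal axis, heart set in brackets) for Ucp2 and both probes of Ucp3 (left) and Acot1 and Acot2 (right). Ucp2 and the Ucp3 probe of higher signal follow nearly the same order from heart to heart, while the other Ucp3 probe lies above 0 and in another order.

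The windows upstream of these variable genes are shown for Ucp3 and Acot1, as the RefSeq promoter table of GRCm38.p6 gives them, 250 bases before the start site. Capitals mark AGGTCA, the half-site that PPARs and other nuclear receptors bind, and AGAACA, the half-site of steroid receptors (here as TGTTCT, its other strand). In Ucp3 AGGTCA begins at -149 and at -44 from the start, and in Acot1 TGTTCT begins at -171. The window of Ucp2, the other variable gene, is not printed and holds neither half-site.
Ucp3 upstream, chr7:100472741-100472990, plus strand: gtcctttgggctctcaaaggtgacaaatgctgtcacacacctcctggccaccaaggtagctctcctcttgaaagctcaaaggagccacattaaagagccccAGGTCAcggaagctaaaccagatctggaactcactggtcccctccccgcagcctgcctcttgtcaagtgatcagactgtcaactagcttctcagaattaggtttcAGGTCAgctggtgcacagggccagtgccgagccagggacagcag
Acot1 upstream, chr12:84009252-84009501, plus strand: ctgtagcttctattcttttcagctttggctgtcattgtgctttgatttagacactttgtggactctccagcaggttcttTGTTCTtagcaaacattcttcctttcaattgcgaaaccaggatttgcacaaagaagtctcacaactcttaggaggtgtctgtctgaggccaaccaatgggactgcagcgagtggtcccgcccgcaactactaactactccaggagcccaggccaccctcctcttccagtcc
Both strands of 28 windows of 300 bases (250 before and 50 after the start), from 26 of the 31 genes, were searched. The table has no entry for Cpt1b, Acaa2, Lpl, Decr1 and Crat. AGGTCA was in 28.6% of the windows against 16.3% of 32851 windows in all, and AGAACA in 3 of the 28 against 19.0%. The repeat AGGTCANAGGTCA, the form that PPARs bind with their partner, was in 0 of the 28 and in 0.0396% of all, and the palindrome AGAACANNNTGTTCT in 0 and in 0.00913%. GGGCGG, the GC box, which overlaps neither, was in 71.4% against 35.7%. Plin5 counted with 2 windows that overlap, each with its own AGGTCA, and a GC box in the shared bases was counted in both. These are matches of letters, not sites shown to be bound.

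A second comparison set no treatment 1, 3 and 4 with aldosterone 3 and 5 (set A) against no treatment 2 and 5 with aldosterone 1, 2 and 4 (set B). These sets cross the treatment groups and were drawn from values of these same arrays, so they are no groups of the study, and the values below are a description with no test. On the scanner arrays 4 of the 31 genes did not overlap between the sets on the probe used, and all 4 were lower in set A: Acsl1, Cpt1b, Hadha and Hadh. Among all genes 6.25% lay apart with set A lower, 5.37% with set A higher and 11.6% in either direction. Of the 25 with unsaturated spots the 4 are 16%. The lower median was in set A for 22 of the 31, where 58.2% of all genes had it there, and in the value table for 23, against 52.2%. Of the 25 it was 17, or 68%. In the value table of 10 hearts 8 genes lay apart, 7 with set A lower (the same 4 with Mlycd, Acadl and Eci2) and 1, Acads, with set A higher, where 4.81% and 6.98% of all genes lay apart in those directions. The 4 genes that lay apart on the arrays also did so in the table, as 3.66% of all genes did with set A lower in both. Median centring in place of loess within arrays left 1 of the 31 apart (17 then had the lower median in set A) and none of them with set A lower, and the share of all genes with set A lower fell to 1.6% of 10.1% in either direction.

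Acsl1, the ligase that joins long-chain fatty acids to coenzyme A in heart, read 1.45, 1.49, 1.52, 1.46 and 1.57 in no treatment 1, 3 and 4 and aldosterone 3 and 5. In set B, as no treatment 2 and 5 and aldosterone 1 and 2, it read 1.83, 1.64, 1.68 and 1.79. The highest heart of set A was below the lowest of set B, and the difference of medians was -0.25, a 1.19-fold lower level. The second Acsl1 probe also lay apart on the arrays, with a difference of -0.29, but overlapped in the value table, where no treatment 1 stood above aldosterone 1. Cpt1b, which carries the rate-limiting entry step into heart mitochondria, read 1.82, 1.66, 1.81, 1.77 and 1.77 in set A and 2.01, 1.85, 1.96 and 2.01 in set B, in the same order of hearts. The sets were only just apart, by -0.22 between medians (1.16-fold lower), and the second Cpt1b probe overlapped. With median centring the Cpt1b difference was 0.00, and that of Acsl1 was -0.09, both with overlap. The sets also overlapped with Cy5 alone for both genes, and for Cpt1b with stray backgrounds kept or with scaling after loess.

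Hadha read 1.36, 1.06, 1.40, 1.13 and 1.18 in set A and 1.75, 1.66, 1.55 and 1.63 in set B, in the same order of hearts. Set B was tight and set A was spread, with no treatment 3 lowest. The medians differed by -0.46, or 1.38-fold lower in set A. Hadh read 0.85, 0.52, 1.06, 0.53 and 0.73 in set A and 1.25, 1.16, 1.20 and 1.39 in set B. Again no treatment 3 and aldosterone 3 were lowest, and the medians differed by -0.50, or 1.42-fold. Median centring gave -0.28 and -0.40, with the sets overlapping in both genes. Aldosterone 4 read 1.87 for Hadha and 1.43 for Hadh in the table, beside 1.78 to 2.05 and 1.26 to 1.48 in the other set B hearts. Hadhb, the other subunit of the trifunctional protein, faces Hadha with 272 bases between the genes. It was saturated on 8 arrays and overlapped between the sets.

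**Figure D4:**
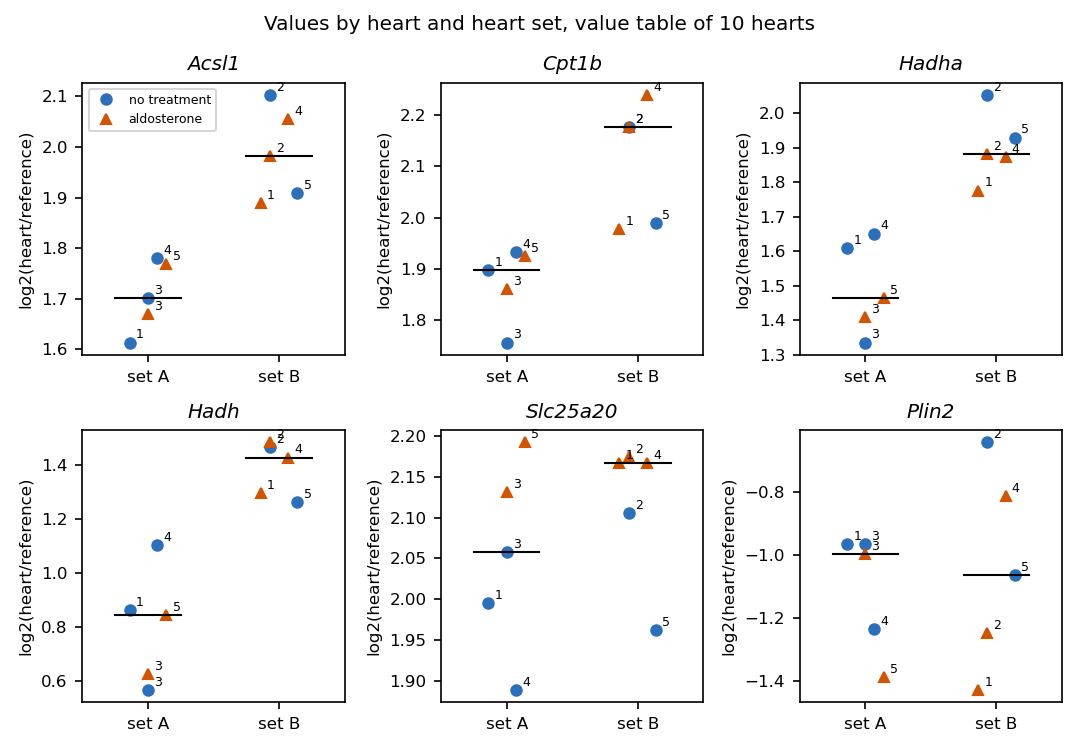
Log2 ratio of heart to reference (vertical axis) in the deposited value table for 10 hearts in heart sets A and B (horizontal axis), for Acsl1, Cpt1b, Hadha, Hadh, Slc25a20 and Plin2; the markers show treatment. Acsl1, Cpt1b, Hadha and Hadh lie lower in set A without overlap, while Slc25a20 and Plin2 overlap.

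The windows upstream of Hadha and Hadh are shown because these genes differed most between the sets among those that lay apart. Hadha holds neither half-site, and Hadh holds TGTTCT at -214 (capitals as above).
Hadha upstream, chr5:30154981-30155230, minus strand: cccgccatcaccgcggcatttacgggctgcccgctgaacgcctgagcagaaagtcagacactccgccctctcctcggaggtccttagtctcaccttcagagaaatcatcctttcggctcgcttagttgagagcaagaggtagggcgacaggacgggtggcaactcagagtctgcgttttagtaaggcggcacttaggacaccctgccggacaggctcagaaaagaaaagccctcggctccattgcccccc
Hadh upstream, chr3:131272102-131272351, minus strand: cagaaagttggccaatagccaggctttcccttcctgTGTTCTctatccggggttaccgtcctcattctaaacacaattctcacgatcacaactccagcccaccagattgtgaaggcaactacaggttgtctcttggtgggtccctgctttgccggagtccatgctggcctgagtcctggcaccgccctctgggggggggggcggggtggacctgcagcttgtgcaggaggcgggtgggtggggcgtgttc
The Hadha window shares 228 bases of its 300 with the window of Hadhb, so for this pair the same letters were counted in both.

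Differences of set medians among the other genes ran from -0.92 for Acot1 to 0.72 for Ucp3, with overlap in each. Mlycd (-0.51), Plin5 (-0.43), Ech1 (-0.40), Eci2 (-0.32), Cd36 (-0.29) and Acadl (-0.26) were lower in the median of set A. Cpt2, Acads, Ucp2 and Ucp3 were higher there, at 0.16, 0.20, 0.55 and 0.72. For Ucp3 this holds for the probe of higher signal, and the second probe turned the other way, at -0.34 on the arrays and -0.46 in the table. Seen by heart, the median of all 31 genes after centring each on its own mean was 0.04, -0.14, -0.03, -0.12 and -0.04 in set A (no treatment 1, 3, 4, aldosterone 3, 5) and 0.21, 0.02, 0.00 and 0.12 in set B (no treatment 2, 5, aldosterone 1, 2). No treatment 1 of set A was above 2 of the 4 set B hearts, so these medians overlapped. In the value table they did not: set A ran from -0.18 to -0.02 and set B from -0.00 (aldosterone 1) to 0.19, a gap much smaller than the spread within either set. The unsaturated Lpl probe did lie apart, by -0.35 on the arrays and -0.48 in the table. The second Decr1 probe also lay apart on the arrays, at -0.15, but overlapped in the table. The Decr1 probe used differed by 0.03 on the arrays, with overlap. Of the cell type marker lists, the macrophage list had means that lay only just apart between the sets. They ran from -1.19 to -0.78 in set A and from -0.76 to -0.48 in set B. Of the 5 tested macrophage genes Mrc1 alone lay apart, at -0.52, and the others overlapped. Cardiomyocyte list means overlapped, at 0.99 to 1.24 and 1.20 to 1.34, while 2 of the 10 genes, the calcium handling genes Pln (-0.66) and Ryr2 (-0.94), lay apart. The median of set A was the lower one for 6 of 10 cardiomyocyte genes and for 5 of 5 tested macrophage genes, beside 58.2% of all genes. The means of smooth muscle and pericyte markers overlapped, at 0.53 to 0.79 and 0.75 to 1.04. Of the 3 atrial markers 1 lay apart with set A higher, by 0.60 on the arrays, and did so in the value table too. The atrial list means overlapped. Ucp1 and Elovl3 of brown fat, Cd68 of macrophages, and Myh1, Myh4 and Actn3 of skeletal muscle had no probe past the filter. The part of these markers in the values of the fatty acid genes was not tested.

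**Figure D5:**
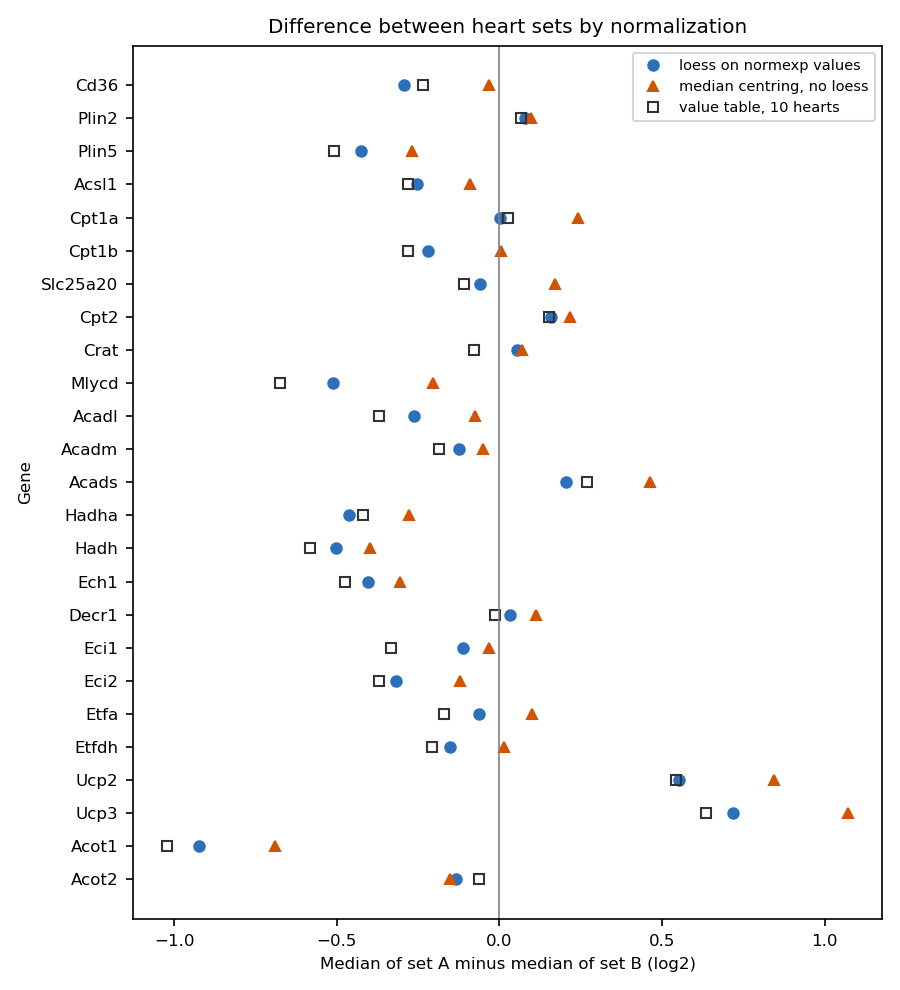
Median of set A minus median of set B (horizontal axis, log2) for the fatty acid genes (vertical axis) whose Cy5 spots were not saturated throughout a group: loess (circles), median centring (triangles) and the value table of 10 hearts (squares). Hadha and Hadh stay below 0 in all 3, and Cpt1b lies at 0.00 under median centring.

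Genes next to the path were read from lists of named genes, and none of them was called for treatment by limma. At an unadjusted p under 0.05, 1 of 18 tested genes of other uptake and activation was higher and 1 lower, as were 1 and 1 of 14 in lipolysis and triglyceride synthesis, 2 and 0 of 11 in fatty acid synthesis, and 0 in the other lists, of 15 peroxisomal, 11 ketone and pyruvate and 14 mitochondrial acyl-CoA genes. Fabp5, a fatty acid binding protein of many tissues, differed by 0.48 (SE 0.13, adjusted p 0.473, limma). Lipe, the hormone-sensitive lipase, differed by -0.27 (SE 0.06, adjusted p 0.280, limma). It is also on the adipocyte marker list, of which 7 of 8 genes were lower with aldosterone, Cfd by -0.99, and the part of those cells was not tested. Scd2, a stearoyl-CoA desaturase, differed by 0.32 (SE 0.09, adjusted p 0.469, limma). Between the heart sets, where 6.25% of all genes lay apart with set A lower and 5.37% with set A higher, the counts were 2 lower and 2 higher of 15 peroxisomal genes, 4 and 1 of 18 in other uptake and activation, and 2 and 0 of 14 in lipolysis and triglyceride synthesis. They were 5 and 1 of 11 ketone and pyruvate genes, 3 and 0 of 14 mitochondrial acyl-CoA genes, and 1 and 0 of 11 in fatty acid synthesis. The ketone genes included Oxct1, the enzyme that activates ketone bodies in heart, at -0.68. Vldlr, the receptor for triglyceride-rich lipoproteins, and Acss1, the mitochondrial acetate ligase, differed most among uptake and activation genes, at -0.85 and -0.75, and both lay apart. Echs1, the enoyl-CoA hydratase of the oxidation spiral, was not among the 31 and lay apart at -0.45. In the same list of mitochondrial acyl-CoA genes Acsm5 had the largest difference, -0.53, with the sets overlapping. Pdk4, the kinase that turns pyruvate dehydrogenase off, had a difference of -0.83 with the sets overlapping.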

How the data were processed

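Ventricle RNA of 10 mice in Cy5 was hybridised with a pooled reference in Cy3 to 2-colour Agilent arrays, per the labels. The authors deposited scanner files with spot intensity values for 9 arrays, read by Agilent Feature Extraction (version 10.7.3.1, from the submitters' processing notes), with a log ratio on the log10 scale, Cy5 as numerator, per the file headers. The authors' deposited table of log2 ratios covers 10 hearts. It matched the scanner's log ratio, put on the log2 scale, with r of 0.996 to 1.00 over probes, and 82.7% to 86.6% of probes were within 0.001, so its scale and direction are known and no centring was seen. Column medians were 0.06, 0.06, 0.12, 0.02 and 0.02 for no treatment 1 to 5 and 0.04, 0.08, 0.11, -0.01 and 0.04 for aldosterone 1 to 5.

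Median signals were background-corrected (normexp, offset 50). Local backgrounds over 20 units from an array's median were replaced by that median, a choice made with the stray backgrounds of no treatment 1, up to 11740 units, known. Loess within arrays followed, with control spots at weight 0, and 1667 spots marked as outliers were dropped. Spots of 1 probe were averaged (43020 spots, 39429 probes). Accessions matched RefSeq records of GRCm38.p6 for 26581 probes. Of the 26877 probes kept, each gene was read by its probe of highest mean Cy5 signal. A limma model compared 4 aldosterone with 5 untreated arrays (R 4.3.3, limma 3.58.1), two-sided. It was also run on simulated data with independent noise and no slide or heart set structure. That run therefore cannot show how the model performs on these arrays. Each sample is labelled as its own mouse. Slide and scan are 1 batch; all 4 slides held both groups. No dye swap was made.

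The members, lists and heart sets were chosen with earlier results of these data known. Genes given in every heart were those apart between the sets in both data sources, and the member of smallest p in each role; the variable uncoupling and thioesterase genes and the second probes were added after their values were seen. Of each neighbouring list at most 3 genes, from among those of largest set difference or smallest p, were named. Cell type lists whose means by set are not printed (adipocyte, brown adipocyte, endothelial, fibroblast, lymphocyte, skeletal muscle, red blood cell and atrium) overlapped between the sets in their means. Numbers of samples in the labels mark different mice. Array number limits the precision.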

Additional observations from a re-analysis of the deposited data

Results flagged for a closer look

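In groups of 4 or 5 hearts, 7 of 62 groups on the scanner arrays and 1 in the value table held a heart far from the others. The nominal rate of about 1 in 20 is for separate groups, and these groups share the same hearts. No share over all genes was taken, so the count cannot be read as an excess. No treatment 2 was the highest untreated heart by a wide gap for Cd36 (1.57, the others 1.24 to 1.33), Acadl (2.46, the others 2.01 to 2.09; among the deposited log2 ratios 2.64, the others 2.13 to 2.25) and Etfdh (2.58, the others 2.34 to 2.36). No treatment 3 was the lowest for Crat (0.887, the others 1.15 to 1.18), Acaa2 (0.980, the others 1.15 to 1.21) and Etfb (0.392, the others 0.60 to 0.63). Acaa2 and Etfb were saturated in Cy5 on every array. Among aldosterone hearts the 1 case was Etfa in aldosterone 2 (2.28, the others 1.99 to 2.01).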

How the results depend on the processing

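None of the 31 genes was called in any of 27 alternatives. The sign of the treatment difference turned in at least 1 of them for 19 genes and in none for 12, Slc25a20, Plin2 and Acads among the latter. Genes called over the whole array (0 in the main analysis) were 8 with Agilent's processed signals, 37 in the value table of 10 hearts, 13 in the table of the 9 scanned hearts, 2 with Cy5 alone, 8 with heart set as a covariate and 12 with that covariate in the table of 10, an alternative chosen after seeing the data. Leaving out 1 array gave 0 to 11. Genes of the 31 apart between the treatment groups (1) were 0 with Agilent's processed signals, 0 with Cy5 alone and 0 with median centring, and 1 to 2 leaving out 1 array (2 without no treatment 2 or 3). Genes apart between the heart sets (4) were 7 with Agilent's processed signals, 8 in the table of 10, 8 in the table of 9, 8 in the table of 10 with the covariate, 2 with Cy5 alone, 1 with median centring, and 4 to 9 leaving out 1 array (9 without no treatment 1 or 5, 8 without aldosterone 1, 6 without no treatment 2 or 4 or aldosterone 2). Fewer hearts in a set make separation easier. The median difference of the 31 was 0.32 within slide 2 (no treatment 3 and aldosterone 2) and -0.08 to 0.02 leaving out 1 array; within slides 1, 3 and 4 it was -0.03, -0.06 and -0.08. The cause of these shifts was not tested. A replicate block called 2 genes and none of the 31. Same-numbered hearts come from different mice, and the labels give no pairing. Their deviations correlated at 0.06, 0.34, 0.35 and -0.34 for numbers 1, 2, 3 and 5. Hearts of unlike number were not set beside them, so these values do not decide whether the numbers pair hearts. Saturation leaves 6 genes with no usable fold on the probe used, and of these Lpl has an unsaturated second probe.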
